A study of Mus musculus with 2 samples.

Results

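Heat shock chaperones are proteins that fold, refold and hold other proteins. The genes described here were fixed by name: 35 genes of the cytosolic and mitochondrial chaperone families (HSP70, HSP110, HSP90, HSP40, small HSP, chaperonins and cochaperones) and the heat shock factors, taken with every probe set annotated to exactly 1 of them. Of the 35 genes, 33 had such probe sets, 89 in all, out of 18193 genes named on the array. Hsf1 and Hsp90ab1 had none and are not analysed here. Of the 33 genes, 30 had a signal above the floor on both arrays and were compared, and Hsf2, Hspa1a and Hspa1b had none above it on either array. The floor is each array's median signal, 15.9 for control and 16 for exposed T cells.

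The data are 1 array of control T cells and 1 array of T cells after contact with RPE, the retinal pigment epithelium that underlies the photoreceptors. Both samples were labelled as male mice of a C57 BL/6 background, aged 6 weeks. CD4 T cells is the title given to the control. For the exposed sample the title names T cells, while its tissue field names primary cultured RPE. The labels used here do not state how many mice gave each sample, how long the exposure lasted or how the cells were stimulated. With 1 array in each group there was no spread between samples, so no difference below has a test or a p-value. Differences are log2 signal in exposed minus control T cells, so a negative value is a lower signal after exposure.

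Cells keep a large stock of chaperones in normal growth and raise a subset of them after heat or other damage to proteins. HSP70 proteins bind unfolded stretches of a client and release them in a cycle driven by ATP. HSP40 proteins start that cycle, HSP110 proteins reset it by exchanging the nucleotide, and HSP90 proteins act later on kinases and receptors that are nearly folded. Chaperonins are barrel-shaped complexes that enclose a client, CCT in the cytosol and Hspd1 with its lid Hspe1 in mitochondria. The stress-induced genes are driven by heat shock factors, which bind DNA elements made of inverted GAA units. Activated T cells make much protein and are known to carry high levels of many of these chaperones.

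Across the family the 2 arrays gave nearly the same signals. The median log2 difference over the 30 measured genes was 0.00012, beside -0.0096 over all 10995 genes compared. Lower signals were as frequent as higher ones, 15 genes each, beside 51.6% lower among all genes. This even split depended on the processing. With quantile normalization 20 of the 30 were lower, beside 50.4% of all genes. The count was 18 with averaged probe sets (51.8% of all genes) and 13 with median centring (49.7%). Of the 30 genes, 25 differed by less than 1.1-fold and 29 by less than 1.3-fold. Of all genes compared, 44.3% differed by less than 1.1-fold and 81.8% by less than 1.3-fold. Among those with a mean signal of 500 or more, 66.3% differed by less than 1.1-fold.

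One gene passed 1.5-fold, the HSP40 gene Dnajb4, which was higher in exposed T cells, beside 3.13% of all genes at least 1.5-fold higher. This count, 1 gene of 30, is near the share over all genes. None of the 30 was at least 1.5-fold lower, beside 3.87% of all genes. None passed 2-fold in either direction, beside 0.437% of all genes higher and 0.628% lower. At 1.3-fold the counts were again 1 gene higher and none lower, beside 8.27% and 9.94% of all genes.

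**Figure D1:**
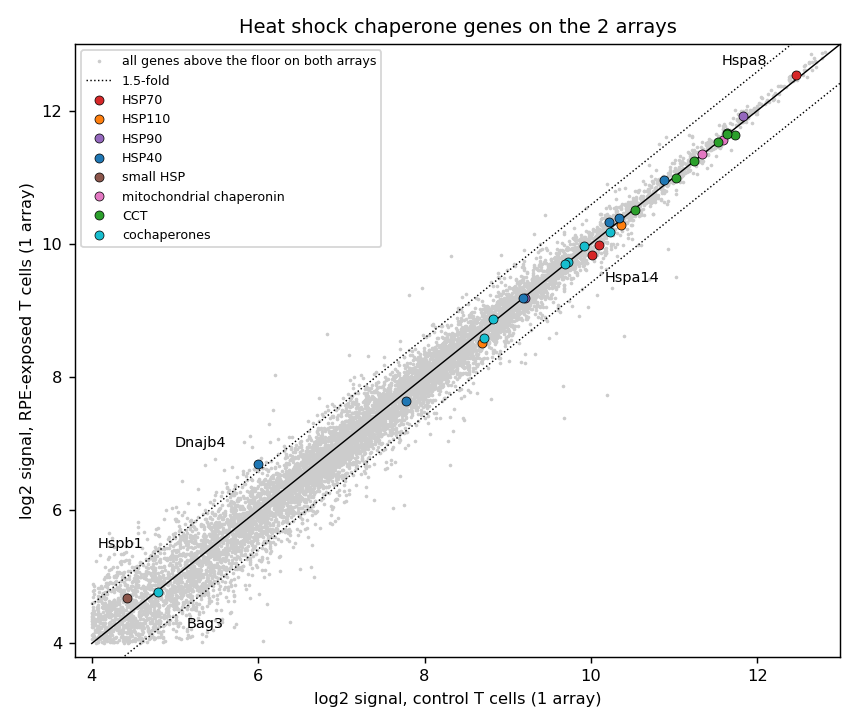
Log2 signal in control T cells (horizontal axis) against log2 signal in RPE-exposed T cells (vertical axis), 1 array each. Grey points are all genes over both floors, coloured points are the 30 measured chaperone genes by class, the solid line marks equal signals and dotted lines mark 1.5-fold. Only Dnajb4 among the chaperone genes lies outside the dotted lines.

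Bright probe sets vary less on such arrays, so the chaperone genes were also set beside genes of like signal. Among genes with a mean signal of 500 or more, the 23 chaperone genes had an SD of 0.070 in their log2 differences, and all 1933 genes had an SD of 0.19. The largest difference of the 23 was the -0.18 of Hspa14, and none passed 1.3-fold, beside 2.64% higher and 2.12% lower among the 1933 genes. The median absolute log2 difference was 0.031 for 11 chaperone genes with a signal of 1500 or more, beside 0.073 over 458 genes. It was 0.049 for 12 chaperone genes at 500 to 1500, beside 0.10 over 1475 genes. At 100 to 500 it was 0.14 for 4 chaperone genes and 0.14 over 4401 genes. Under 100 it was 0.26 for 3 chaperone genes and 0.24 over 4661 genes. The median of the chaperone genes was thus clearly the smaller one only at 500 and above, a description that has no test.

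**Figure D2:**
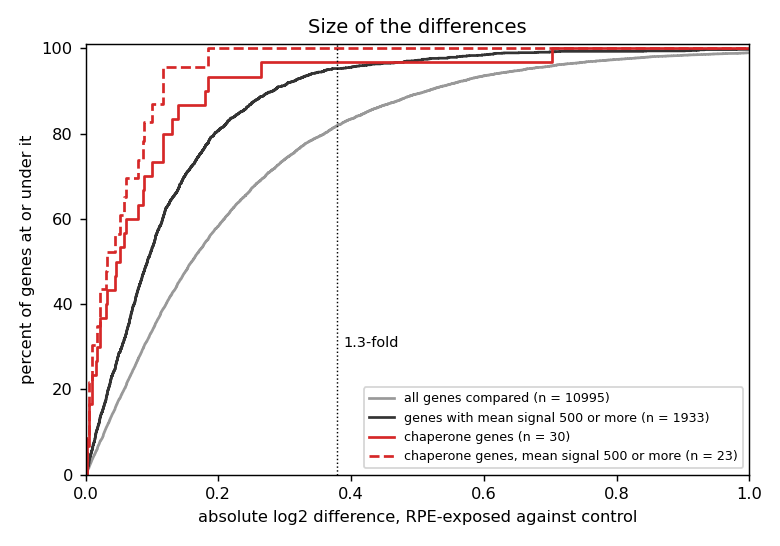
Percent of genes (vertical axis) whose absolute log2 difference between the arrays is at or under the value on the horizontal axis. Grey and black lines are all 10995 genes compared and the 1933 genes with a mean signal of 500 or more, and red lines are the 30 chaperone genes (solid) and the 23 of them with a mean signal of 500 or more (dashed). The red lines climb faster than the grey and black ones, and the last step of the solid red line, at 0.70, is Dnajb4.

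A further yardstick is the like-level range, the central 95% of log2 differences among genes in the same twentieth of mean signal. Of the 30 genes 29 lay inside it, with Dnajb4 the exception, beside 5.07% of all genes outside. For genes with more than 1 probe set over both floors, the SD of the log2 differences within a gene had a median of 0.14 over 21 chaperone genes, and 0.15 over 4767 genes in all. These probe sets share 1 RNA sample per array and so replicate neither cells nor arrays. Probes differ in brightness, so signals are compared between arrays and not between genes.

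**Figure D3:**
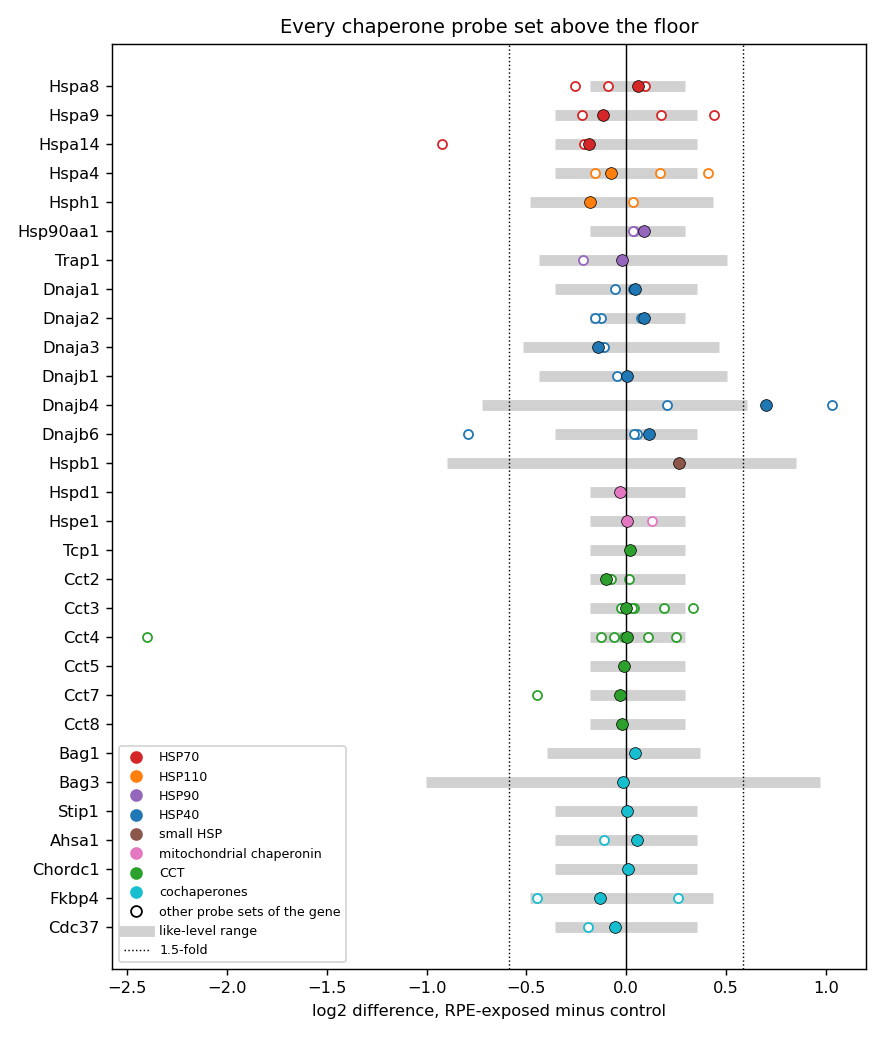
Log2 difference, RPE-exposed minus control (horizontal axis), of every chaperone probe set that cleared a floor, 1 line per gene, coloured by class. Filled points are the probe set that represents the gene, open points its other probe sets, grey bars the like-level range, and dotted lines 1.5-fold. The filled points lie close to 0 apart from Dnajb4 at 0.70, while some open points, such as 1 of Cct4 at -2.40, lie far from the filled point of the same gene.

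The heat shock factor Hsf2 was dim on both arrays. Its probe sets gave 3.4 in control and 4.6 in exposed T cells, and 10.1 and 7.0, all under the floor. No fold is given for it. The regulators of the family are therefore not measured by these probe sets, and the results concern the chaperones themselves.

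The stress-inducible HSP70 pair, Hspa1a and Hspa1b, was not detected above the floor in either sample. The only probe set of Hspa1a gave 3.8 in control and 11.9 in exposed T cells. The 3 probe sets of Hspa1b gave 10.3 and 9.4, 12.8 and 12.2, and 6.2 and 8.2. These genes encode nearly identical proteins, so their probe sets can share signal. Their upstream sequences are shown because the inducible pair was under the floor on both arrays and each window holds a heat shock element (capitals), a GAA unit and its inverted copy TTC with 2 bases between them. They are RefSeq sequences of assembly GRCm38.p6, 150 bases up to the transcription start on the minus strand, at chr17:34972157-34972306 and chr17:34959239-34959388.
Hspa1a: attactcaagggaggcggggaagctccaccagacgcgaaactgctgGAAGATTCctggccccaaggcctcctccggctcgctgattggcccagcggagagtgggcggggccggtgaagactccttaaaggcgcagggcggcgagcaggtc
Hspa1b: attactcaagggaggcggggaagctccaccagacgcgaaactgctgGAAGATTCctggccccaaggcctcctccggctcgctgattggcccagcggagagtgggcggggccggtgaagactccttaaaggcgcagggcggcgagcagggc
The stretches were the same at 149 of 150 bases. In both, the element begins 104 bases before the start.

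The other HSP70 genes were bright and alike on the arrays. Hspa8, the constitutive cytosolic HSP70, gave 5659.4 in control and 5904.7 in exposed T cells, a log2 difference of 0.061. Its other probe sets gave 4745.1 and 5067.4, 2255.2 and 2118.4, and 114.0 and 95.4. Hence 2 of its probe sets were higher and 2 lower in exposed cells. The higher pair have the suffix x in their names, which marks probes shared with other sequences. With suffixed probe sets (x, s or a) left out, Hspa8 rested on its dimmest probe set and stood at -0.26.

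Hspa9, the HSP70 of the mitochondrial matrix that pulls in imported proteins, gave 1096.4 and 1011.3 (-0.12). A second bright probe set gave 798.7 and 736.6, also -0.12, and the dimmer ones ran from -0.22 to 0.44, the last with its control signal under the floor. The average of all 5 was 0.033, a change of sign. Hspa14, an HSP70 relative found at ribosomes, gave 1036.6 and 912.1 (-0.18). All 3 of its probe sets were lower in exposed cells, the dimmest at 65.6 and 34.6 (-0.92), and their average was -0.44. The class median was -0.12 over these 3 genes, and none left its like-level range.

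Both HSP110 genes, nucleotide exchange factors of HSP70, had slightly lower signals in exposed T cells. Hspa4 gave 1316.7 in control and 1247.0 in exposed T cells (-0.078, like-level range -0.36 to 0.36). Its 3 dimmer probe sets disagreed in sign, from -0.16 to 0.41, and the average of all 4 was 0.086, a change of sign. Hsph1, which is also strongly heat-inducible, gave 414.8 and 366.2 (-0.18) with 1 probe set and 292.7 and 300.0 (0.036) with the other. The class median was -0.13, and 0.0070 with averaged probe sets, so no direction holds for this pair.

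HSP90 genes were alike on the arrays. Hsp90aa1, the stress-responsive cytosolic HSP90, gave 3633.6 in control T cells and 3861.9 after exposure, 1.06-fold higher. Its other probe sets above the floor gave 3468.2 and 3562.7, and 2650.7 and 2710.1. The 3 values averaged 0.053 ± 0.031 (SD over probe sets), all of them positive. A further 2 probe sets of the gene lay under the floor. Trap1, the mitochondrial HSP90, gave 590.5 and 581.9 (-0.021), and its second probe set 171.0 and 147.4 (-0.21).

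Among HSP40 genes, the partners that load clients on HSP70, Dnajb4 had the largest difference. It gave 63.9 in control T cells and 104.0 after exposure, 1.63-fold higher, a log2 difference of 0.70 against a like-level range of -0.72 to 0.61. A second probe set gave 17.9 and 36.6 (1.03). The third gave 11.7 and 18.3, over the floor after exposure alone and at least 1.15-fold higher. All 3 probe sets were thus higher in exposed T cells, and the 2 over both floors averaged 0.87 ± 0.23 (SD over probe sets). These signals were low, and a floor raised to the 75th percentile of each array left a difference of 0.16.

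Dnajb4 is expressed in many cell types, and markers of other cells also differed between the arrays. All 9 measured genes of B cells were lower in exposed T cells, at a median of -0.54 and signals that summed to 2162.4 and 1400.9. Of 10 measured macrophage and dendritic-cell genes 8 were lower, at a median of -0.48 and sums over the 12 listed of 2841.4 and 2017.0. H2-Eb1, H2-Ab1 and H2-Aa, MHC class II genes that B cells express too, made up 2627.0 and 1850.7 of these sums, and the 9 other genes summed to 214.4 and 166.3. Of 12 RPE genes 2 were above the floor, on the exposed array only, Pmel at 18.3 and Rdh5 at 16.1, and the 12 signals summed to 90.3 and 80.4. The defining RPE gene Rpe65 gave 5.3 and 2.3. Both CD8 T-cell genes listed were higher in exposed T cells, at a median of 0.38. None of these marker lists held a gene at exactly 0. The part of such cells in the difference of Dnajb4 was not tested. In such bulk samples fewer cells of a type and less RNA per cell cannot be told apart.

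The upstream sequence of Dnajb4 is shown beside that of Dnajb6, another HSP40 gene, because both have heat shock elements close to a start and only Dnajb4 passed 1.5-fold. They are 150 bases up to a transcription start, at chr3:152193846-152193995 on the minus strand and chr5:29735748-29735897 on the plus strand (RefSeq, GRCm38.p6).
Dnajb4: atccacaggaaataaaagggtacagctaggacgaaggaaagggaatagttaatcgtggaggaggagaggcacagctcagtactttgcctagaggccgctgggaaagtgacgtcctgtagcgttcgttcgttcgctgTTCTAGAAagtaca
Dnajb6: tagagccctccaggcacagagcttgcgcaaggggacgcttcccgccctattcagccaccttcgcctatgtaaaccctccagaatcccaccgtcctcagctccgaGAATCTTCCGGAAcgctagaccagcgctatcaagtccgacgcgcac
Capitals mark the elements. In Dnajb4 a pair of units begins 14 bases before the start. This is 1 of 2 annotated starts of the gene, and the window of the other holds no match. At least 1 such pair occurred in 17.0% of all genes with a window. A part of this pair in the difference of Dnajb4 was not tested. In Dnajb6 the element has 3 units in a row and begins 46 bases before the start used here. Dnajb6 too has 2 annotated starts, and the same element begins 127 bases before the other.

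The other HSP40 genes differed little by their representative probe sets. Dnajb6, a suppressor of protein aggregation, gave 1187.9 in control and 1287.6 in exposed T cells (0.12), with 2 further probe sets at 0.054 and 0.039. Its dimmest probe set went the other way, at 70.8 and 40.8 (-0.80), which brought the average to -0.15. Dnajb1, the classic heat-inducible HSP40, gave 581.4 and 583.6 (0.0054), and its second probe set 502.7 and 487.2 (-0.045). Both of its differences were under 1.1-fold.

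The farnesylated cytosolic HSP40 Dnaja1 gave 1292.2 and 1333.2 (0.045). Its other probe sets gave 0.033 and -0.056. Dnaja2, of the same subfamily, gave 1877.2 and 1993.9 (0.087), while its other probe sets gave values from -0.16 to 0.072. Dnaja3, the mitochondrial HSP40, gave 219.7 and 199.4 (-0.14), with a second at 124.8 and 115.4 (-0.11). The class median was 0.066, with 5 of 6 genes positive, but it was -0.026 with averaged probe sets.

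The small heat shock protein gene Hspb1, an ATP-independent holdase, was near the floor. It gave 21.4 in control and 25.7 in exposed T cells (0.26, like-level range -0.90 to 0.85), and its second probe set 0.8 and 0.9, under the floor. Its upstream sequence is shown because it holds 2 separate elements and its signal was at the edge of detection on both arrays (chr5:135887769-135887918, plus strand).
Hspb1: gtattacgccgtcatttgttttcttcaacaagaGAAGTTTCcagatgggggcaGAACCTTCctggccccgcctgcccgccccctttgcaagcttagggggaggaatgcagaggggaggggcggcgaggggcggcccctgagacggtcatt
The elements begin 117 and 97 bases before the start.

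The mitochondrial chaperonin genes gave bright and nearly equal signals. Hspd1, the barrel subunit, gave 3088.5 in control and 3023.7 in exposed T cells (-0.031). Hspe1, its lid, gave 2586.6 and 2595.6 (0.0050), and with its second probe set 1153.0 and 1262.4 (0.13). Neither differed by 1.1-fold. The genes lie head to head. Hspd1 has 2 annotated starts, 1 of them 216 bases from that of Hspe1, and the stretch is shown because 1 element lies in a window of each. It is the 150 bases before the start of Hspe1, at chr1:55087998-55088147 on the plus strand.
Hspe1: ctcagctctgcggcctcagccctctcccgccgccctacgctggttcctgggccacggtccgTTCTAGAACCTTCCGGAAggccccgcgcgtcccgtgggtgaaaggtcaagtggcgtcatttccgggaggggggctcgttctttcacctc
The capitals are 4 inverted units in a row, 18 bases at chr1:55088059-55088076, beginning 89 bases before the Hspe1 start. The same bases, read on the other strand, lie in 1 of the 2 windows of Hspd1, beginning 144 bases before its start. The window of the other Hspd1 start, which lies 95 bases past the Hspe1 start, holds no match. The 5 mitochondrial members, Hspd1, Hspe1, Hspa9, Trap1 and Dnaja3, had a median of -0.031, and the 25 others a median of 0.0054. Of the 5, 4 were negative, beside 51.6% of all genes. With averaged probe sets Hspa9 was positive, at 0.033.

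CCT subunits, which together form the cytosolic chaperonin that folds actin and tubulin, lay close together. The 7 genes had a median of -0.010, an SD of 0.039, and a range from -0.10 to 0.017. This SD was the smallest among the 4 classes of at least 3 genes, the others being 0.064 for cochaperones, 0.13 for HSP70 and 0.29 for HSP40. With averaged probe sets the SD was 0.15 for CCT and 0.062 for cochaperones, so this order then no longer held. Tcp1 gave 3190.9 in control and 3228.8 in exposed T cells. Cct2 gave 3413.5 and 3185.5 (-0.10). Its other probe sets gave -0.076 and 0.015. Cct2 and Tcp1 mark the lower and upper ends of the class. Cct3 gave 2420.2 and 2416.6, Cct4 3185.0 and 3197.5, and Cct5 2959.9 and 2938.9. Cct7 gave 2076.6 and 2030.5 (-0.032), and Cct8 gave 1479.1 and 1456.5 (-0.022). All 7 lay within 1.1-fold.

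Single probe sets of CCT genes departed from this. A Cct4 probe set with the suffix x gave 84.6 in control and 15.7 in exposed T cells, at -2.40 with the exposed signal at the floor, while the other 6 ran from -0.13 to 0.25. A Cct7 probe set with the suffix s, which marks probes shared by several transcripts, gave 1387.6 and 1016.5 (-0.45) beside -0.032 for the representative one. With averaged probe sets Cct4 stood at -0.32 and Cct7 at -0.24. For Cct3, whose 6 probe sets above the floor ran from -0.025 to 0.34, the largest value came from the dimmest, at 22.8 and 28.8.

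**Figure D4:**
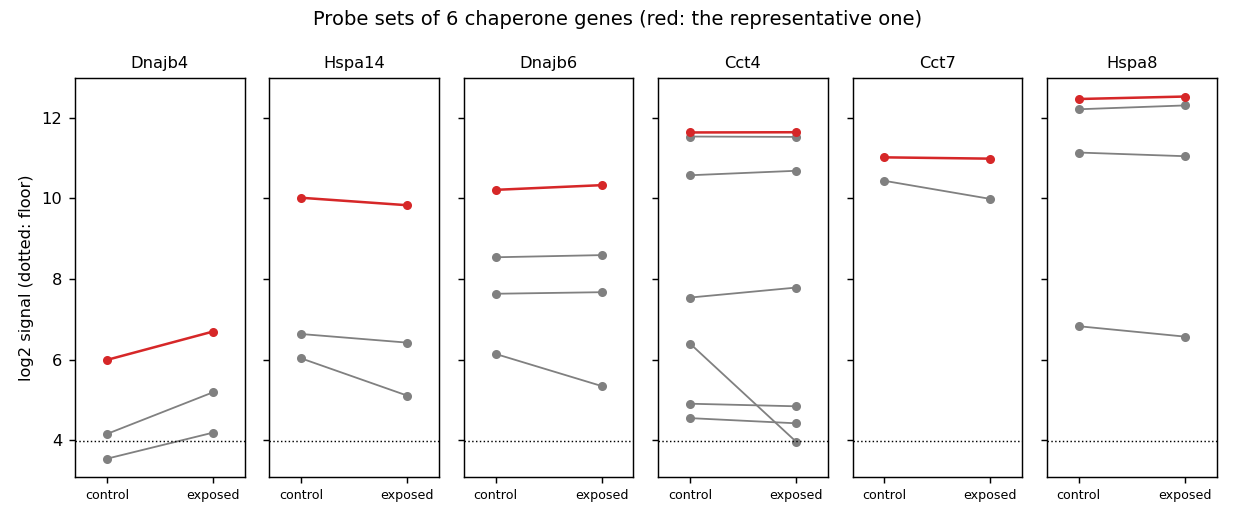
Log2 signal (vertical axis) of every probe set of 6 chaperone genes in control and in RPE-exposed T cells, 1 array each. Red lines are the representative probe set of the gene, grey lines the others, and the dotted line is the floor of the control array. All 3 lines of Dnajb4 slope up, while in Dnajb6 and Cct4 a single dim probe set falls away from level bright ones.

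Such departures were mostly in dim probe sets. Of 47 probe sets above the floor that do not represent their gene, 8 differed by at least 1.3-fold, and 7 of the 8 had both signals under 100. The exception was the Cct7 probe set named above. Counted singly, 4 of the 77 chaperone probe sets that cleared a floor were at least 1.3-fold higher and 5 lower, beside 9.03% and 10.5% of all such probe sets. Their median was -0.0021.

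Cochaperones of HSP70 and HSP90 were alike on the arrays. Stip1, which passes clients from HSP70 to HSP90, gave 844.7 in control and 846.1 in exposed T cells (0.0024). Ahsa1, which speeds the ATPase of HSP90, gave 968.4 and 1004.3 (0.053), and a dim probe set of it 42.2 and 39.0 (-0.11). Chordc1, an HSP90-binding protein, gave 826.0 and 831.3 (0.0092). Cdc37, which brings kinases to HSP90, gave 1202.9 and 1155.3 (-0.058), with a dimmer one at 53.8 and 47.1 (-0.19).

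The largest difference of the class was that of Fkbp4, a peptidyl-prolyl isomerase of steroid receptor complexes, at 421.2 and 384.8 (-0.13). A dim probe set of Fkbp4 gave 30.5 and 22.4 (-0.45), and another gave 1.6 and 19.0, over the floor after exposure alone. Bag1, a nucleotide exchange factor of HSP70, gave 454.3 and 468.9 (0.046). Bag3, a stress-induced partner of HSP70 in autophagy, was dim at 27.7 and 27.4 (-0.016). The class median was 0.0024 over 7 genes, all within 1.1-fold.

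The heat-inducible members as a group did not differ between the samples by 1.3-fold. Of Hspa1a, Hspa1b, Hspb1, Hsph1, Hsp90aa1, Dnajb1 and Bag3, 5 of 7 were measured, 3 were positive and 2 negative, and the median was 0.0054. The bright ones, Hsp90aa1 and Dnajb1, were within 1.1-fold. The dim ones, Hspb1 and Bag3, had like-level ranges reaching past 1.5-fold in both directions, so a change of that size in them was not detectable at these signals.

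Heat shock elements were counted in the RefSeq windows from 250 bases before to 50 after each annotated start. A match was GAANNTTC or TTCNNGAA, each of which reads the same on the opposite strand, and overlapping matches were counted. Of 35 members 29 had a window. Hsf1, Hsp90ab1, Hspa8, Hspa9, Hsp90aa1 and Cct4 are the others. At least 1 window held a match in 15 of 29 members, 51.7%, and in 17.0% of all 27025 genes with a window. Windows with 3 units in a row, found in 5 members (17.2%), occurred in 0.662% of all genes. The 5 were Hspd1, Hspe1, Hsph1, Dnajb6 and Chordc1. A match describes letters only, and a window without one says nothing of the factor.

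**Figure D5:**
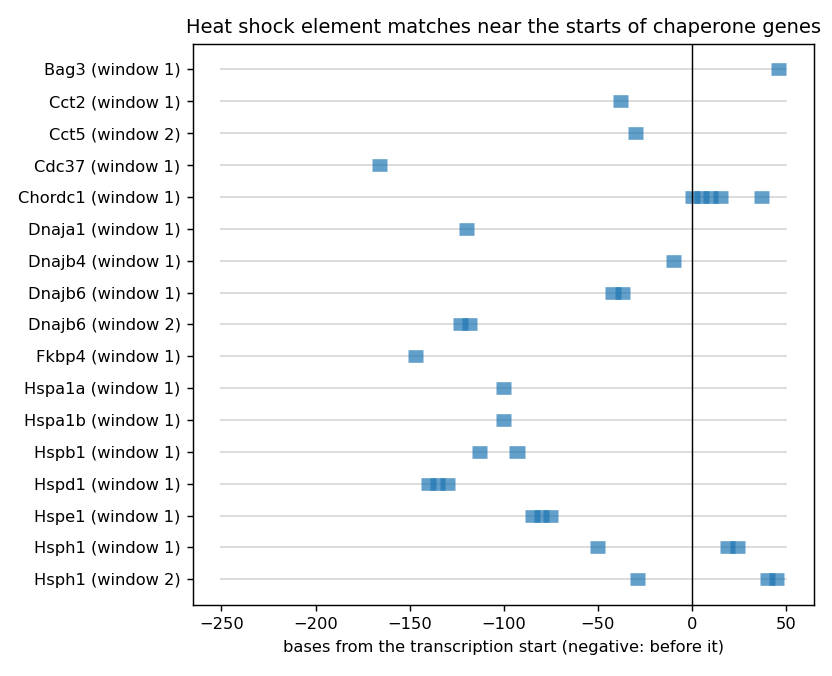
Positions of heat shock element matches (blue bars, 8 bases each) along the windows of the 15 chaperone genes that hold one, in bases from the annotated start (horizontal axis, negative before it). Each line is 1 window, numbered within its gene, and darker blue marks matches that overlap. The matches of Hspa1a and Hspa1b lie at the same place, and those of Bag3 lie after the start.

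Genes with and without such a match gave alike values. The 13 measured members with a match had a median log2 difference of -0.010, from the -0.18 of Hsph1 to the 0.70 of Dnajb4, with 7 negative. The 13 measured members with a window and no match had a median of -0.0021, with 7 negative as well. The 5 with 3 units had a median of 0.0050. Dnajb4 was the only 1 of the 13 genes with an element to pass 1.3-fold, and the only 1 of all 30 members. Of all genes, 8.27% were at least 1.3-fold higher and 9.94% lower.

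Further chaperone genes outside the named family also had a median near 0. Their differences ran from -0.45 to 0.59, beside -0.18 to 0.70 for the members. Their median absolute log2 difference was 0.11, beside 0.049 for the 30 members and 0.16 for all genes, a comparison not matched for signal. Of 56 such genes listed from general knowledge (other HSP70, HSP40 and small HSP genes, prefoldins, BAG proteins, HSP90 partners and mitochondrial proteases), 53 were on the array and 46 were compared. Their median was -0.044, 29 were negative, none was at least 1.5-fold lower and 1 was at least 1.5-fold higher. The shares over all genes were 51.6% negative, 3.87% at least 1.5-fold lower and 3.13% higher, so 1 gene of 46 is near the background. That gene was Fkbp8, a membrane-anchored FKBP of mitochondria, at 347.2 in control and 521.8 in exposed T cells (0.59, like-level range -0.48 to 0.44). It lay just past 1.5-fold, and at 0.57, just short of it, with an offset of 16.

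Fkbp5, the glucocorticoid-induced HSP90 cochaperone related to Fkbp4, gave 339.0 and 506.4 (0.58), 1.49-fold higher, and its 2 probe sets averaged 0.55 ± 0.045 (SD over probe sets). Dnajc15, a J-domain protein of the mitochondrial inner membrane, gave 1295.4 and 1808.9 (0.48, like-level range -0.18 to 0.30). Fkbp8, Fkbp5 and Dnajc15 were the 3 of 46 genes outside their like-level ranges, a count near the 5.07% of all genes. All 3 were higher in exposed T cells. Over 8 alternative settings their values ran from 0.57 to 0.60 for Fkbp8, 0.55 to 0.59 for Fkbp5 and 0.45 to 0.49 for Dnajc15. Fkbp8 and Dnajc15 each rested on 1 probe set above both floors. Their values were the same with averaging, without suffixed probe sets and under every floor, so these narrow ranges do not measure precision.

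T-cell genes were well above the floor in both samples. Of 9 measured, Cd3e gave 770.9 in control and 763.9 in exposed cells, and the list's median was -0.013. Single genes ran from -0.51 for Trat1 to 0.48 for Cd28, the latter past its like-level range of -0.18 to 0.30. The control was titled CD4 T cells, and Cd4 gave 287.0 and 271.1 with its representative probe set. Its 2 probe sets averaged 0.26 ± 0.48 (SD over probe sets), so no direction holds for it. Cd8a gave 568.8 and 694.6 (0.29) and Cd8b1 706.4 and 983.9 (0.48), well above the floor on both arrays. The value of Cd8b1 was past its like-level range of -0.36 to 0.36.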

How the data were processed

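Total RNA of mouse T cells was labelled and hybridised to 1-colour Affymetrix arrays, 1 array for control and 1 for RPE-exposed T cells, per the labels' protocols. The deposited values are linear intensities, 1 per probe set and array, on 45101 probe sets. Which software summarized the probes is not given in the sources used here. After trimming 2% of probe sets at each end, the mean intensity was 100 for either array. The values were therefore already on a common scale and were left as they were.

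Gene names are those of the platform annotation (34945 probe sets with exactly 1 gene, manufacturer's controls left out). Signals under the array's median were set to it, and log2 differences were taken. The probe set brightest on average (log2) stands for its gene. Of 18193 genes, 9999 were above the floor on both arrays and 996 on 1. For probe sets above it on 1 array only, a fold is a lower bound. The folds counted were 1.5 and 2, and 1.3, which was added after seeing the data. With 1 array per group no test was possible, and this number of arrays sets the limit of precision.

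Named genes are all members, with both signals for the heat-inducible ones, the factors, those past 1.5-fold or outside the like-level range, and those whose probe sets disagree. Other pathway genes at least 1.5-fold different were named by rule. Fkbp5 and Dnajc15 were named after their values were seen. The members and lists were chosen with earlier results of these data known.

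The alternatives were averaged probe sets, floors at the 25th and 75th percentiles, no floor, an offset of 16, median centring, quantile normalization, and leaving out probe sets with the suffix x, s or a. The steps were tested on simulated data. Python 3.11.15, numpy 2.4.6, pandas 2.3.3 and matplotlib 3.10.9 were used.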

Additional observations from a re-analysis of the deposited data

How the results depend on the processing

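No paired analysis was possible because the design has 1 array in each group, and no replicate could be left out. A value was counted as moved when it shifted by more than the SD between probe sets of a gene at its signal, divided by the square root of the number of genes for a median. Of 122 values of lists and counts under the alternatives, 105 stayed and 17 moved. The counts of lower chaperone genes, 20, 18 and 13 in place of 15, were among those that stayed, so a count that stayed could still shift by this much. The median of the chaperone genes moved with quantile normalization, to -0.038. With averaged probe sets the HSP110 median moved to 0.0070 and the HSP40 median to -0.026. The count of chaperone genes at least 1.5-fold higher was 2 under a 25th-percentile floor or none, where Hspa1a joined Dnajb4, and 0 under a 75th-percentile floor. Hspa1a, at 3.8 and 11.9, was under the main floor on both arrays. Of all genes, 66.3%, 60.0% and 91.2% differed by less than 1.3-fold in these 3 settings, beside 81.8% in the main one. The share of all genes past 1.5-fold was not counted under the alternatives, so counts past 1.5-fold here and below have no background beside them. Lower genes stayed at 0 in the 8 gene-level alternatives. In a setting chosen after seeing the data, each of 77 probe sets was counted on its own. Of these, 39 were negative (50.6%), beside 51.1% of all 20258 such probe sets. Of the 77, 3 were at least 1.5-fold lower (Cct4, Dnajb6 and Hspa14) and 2 higher (both of Dnajb4).

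For the other pathway genes, whose alternatives were also added after seeing the data, the count at least 1.5-fold higher was 3 under a 25th-percentile floor, 5 without one, 0 with the offset, and 2 with median centring and with quantile normalization. The count lower was 2 under a 25th-percentile floor or none, and 1 without suffixed probe sets. Dnajb4 ran from 0.16 to 0.74 over the alternatives. Of 257 values of single genes, 11 moved. Under a 25th-percentile floor and without a floor, each of these values was the same as in the main setting. Median centring shifted all of them alike. Apart from the 0.16 of Dnajb4 under the highest floor, every move came from averaging probe sets or leaving out suffixed ones. Many of the 257 values thus had little or no room to move, and the share that moved does not measure stability. Dim genes limit the precision: under a signal of 100 the SD between probe sets of a gene was 0.29, against 0.14 at 500 or more.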
